A study of Mus musculus with 11 samples.

Results

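The genes described here encode the machinery that brings proteins into mitochondria and folds them there. They were chosen by name: every gene symbol that starts with Timm or Tomm followed by a digit, and Hspd1, Hspe1, Grpel1, Grpel2, Pmpca, Pmpcb, Dnajc19, Chchd4 and Gfer. The rule found 33 genes among the 21677 of the exonic count tables and the same 33 among the 18824 of the intronic tables. Together they held between 0.0824% and 0.119% of the exonic reads of a library.

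The cells were C2C12, an established line of mouse skeletal myoblasts, kept in growth medium and labelled when confluent. They received an adenovirus at a multiplicity of infection of 100 that expressed, from a U6 promoter, a short hairpin against Zc3h10 (shZc3h10) or a scrambled hairpin (scramble), so that 1 construct stands for each arm and the controls carry an adenovirus too. All cultures were given 300 µM 4-thiouridine (4sU), a uridine analogue that enters RNA as it is made, for 30 min, and both the labelled RNA pulled down through it and total RNA freed of ribosomal RNA were sequenced. The 11 libraries were 3 of labelled RNA with shZc3h10, 2 of labelled RNA with scramble, and 3 of total RNA with each hairpin. The labels do not say that replicates were separate cultures, so p-values measure only how far these libraries spread, and that spread may be technical.

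Most mitochondrial proteins are made in the cytosol and enter through the translocase of the outer membrane, the TOM complex, whose receptors recognise them and whose Tomm40 channel lets them pass. The TIM23 complex of the inner membrane then takes proteins with a presequence into the matrix with the help of an import motor, and the TIM22 complex inserts carrier proteins that small Timm chaperones escort across the intermembrane space. In the matrix the presequence is cut off by the peptidase of Pmpca and Pmpcb, and the chaperonin of Hspd1 and Hspe1 folds the protein.

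The exonic totals ran from 10369374 to 19690198 reads in labelled RNA and from 31058706 to 54075687 in total RNA, and the intronic totals from 26272902 to 41597832 and from 6007028 to 12213901. Zc3h10, the targeted gene, had 21.5 and 20.1 counts per 1000000 reads (CPM) among exonic reads in the labelled scramble libraries and 13.2, 18.8 and 12.8 in the labelled shZc3h10 libraries, a log2 difference of -0.49 (edgeR adjusted p = 0.128). In total RNA it went against the labels, with 43.6, 52.8 and 29.6 CPM in the libraries labelled scramble and 69.6, 114 and 75 in those labelled shZc3h10, a log2 difference of 1.04 (edgeR adjusted p = 0.0522). Intronic reads of Zc3h10 gave -0.97 in labelled RNA (edgeR adjusted p = 0.0842) and 1.07 in total RNA by label (edgeR adjusted p = 0.0325). For all 6 total libraries the file name and the label name opposite hairpins, so every direction given for total RNA holds for the labels only and is worded that way. The summed level of 6 myoblast markers (among them Itga7, Cdh15 and Des) was 1522 to 1557 CPM in labelled scramble and 842 to 922 in labelled shZc3h10 libraries, but 1241 to 1938 in total libraries labelled scramble and 2586 to 3289 in those labelled shZc3h10. Des, Itga7 and Cdh15 carried the sum: Pax7, Myod1 and Myf5 had exonic log2 fold changes of 0.34, 0.03 and -0.14 in labelled RNA and -0.03, -0.29 and -0.10 in total RNA by label, none of them called. Among labelled introns edgeR called 3 of the 6 lower with shZc3h10 and 1 higher, beside 15.5% of all genes called. The higher one was Pax7 at 0.49 (edgeR adjusted p = 0.00295). None of the 6 was at 0. Markers of macrophages (3 of 4 in the tables, at most 27.6 CPM summed), endothelium (at most 1.46) and fat cells (at most 1.22) were low throughout. In bulk RNA, fewer cells of a type and less RNA per cell cannot be told apart.

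Promoter stretches of 4 members are shown first, from RefSeq on the GRCm38.p6 build. A window of 250 bases before and 50 after a gene's start was found for 29 of the 33 genes. Hspd1 and Hspe1 are shown because they lie head to head on chromosome 1 and share a stretch with a heat shock element, and neither was called in a hairpin comparison. The stretch runs from the start of Hspe1 to 1 of the 2 starts given for Hspd1, chr1:55087933-55088147 on the plus strand, where the capitals mark the heat shock element searched as GAANNTTC on both strands, 84 bases before the start of Hspe1. Timm50 (chr7:28312047-28312296, minus strand) and Dnajc19 (chr3:34081355-34081604, minus strand) are given by the 250 bases before their starts, because they were the members called in exonic total RNA, and none of the motifs searched was found in those bases.
Hspd1 and Hspe1: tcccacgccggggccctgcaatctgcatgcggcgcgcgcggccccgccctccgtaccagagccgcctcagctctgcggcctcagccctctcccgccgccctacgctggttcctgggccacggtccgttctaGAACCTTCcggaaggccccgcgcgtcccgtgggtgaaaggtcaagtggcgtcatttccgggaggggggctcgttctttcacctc
Timm50: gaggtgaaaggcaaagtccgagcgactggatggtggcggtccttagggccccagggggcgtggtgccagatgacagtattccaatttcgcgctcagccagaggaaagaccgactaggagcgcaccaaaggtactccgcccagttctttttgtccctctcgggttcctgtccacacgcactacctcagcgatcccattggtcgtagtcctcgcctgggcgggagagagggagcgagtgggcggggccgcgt
Dnajc19: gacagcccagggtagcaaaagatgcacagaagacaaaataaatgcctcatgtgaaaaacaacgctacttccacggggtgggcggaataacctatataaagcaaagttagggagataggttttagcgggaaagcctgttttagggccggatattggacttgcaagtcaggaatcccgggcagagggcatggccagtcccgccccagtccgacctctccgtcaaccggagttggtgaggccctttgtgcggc

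Over the whole windows, the heat shock element matched in 3 of the 29 genes (Hspd1, Hspe1 and Timm9), which is 10.3%, against 9.04% of 27025 genes. The ETS site CCGGAAGT, letters bound by GABP, matched in 6 (Pmpcb, Timm10, Timm10b, Timm23, Timm8a2 and Tomm70a), which is 20.7%, against 4.31% of all genes. A site of NRF1, a regulator of nuclear genes for mitochondrial proteins, was searched as GCGCA and GCGC with 1 base between them and matched in 4 (Chchd4, Hspd1, Timm8b and Tomm20), 13.8% against 5.19%. The YY1 site AAGATGGC matched in Timm50 alone, 12 bases after its start, against 3.19% of all genes. The cAMP response element TGACGTCA and the composite site TGATGNAAT of ATF4 and CHOP matched in 0 of the 29, against 2.03% and 1.08% of all genes. Each motif was read on both strands, a match in any window of a gene counted, and matches of different motifs were allowed to overlap. A match says only that these letters are in the window.

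Levels were compared between genes as exonic CPM per kilobase of exon. In total RNA the order began with Timm50 at 75.8 ± 36.9 (SD, n = 6), the receptor of the TIM23 complex, then Tomm40l at 41.2, Hspd1 at 40.8 and Timm23, the TIM23 channel, at 39.6. In labelled RNA it began with Tomm6, a small TOM subunit, at 45.5 ± 5.35 (SD, n = 5), then Hspd1 at 44.6, Timm50 at 38.4 and Timm23 at 36.1. Each of these neighbours lay within the SD of the one before it, and the order changed between groups. Total libraries labelled scramble had Timm50 at 46.0, Hspd1 at 44.6, Timm23 at 42.3 and Tomm40l at 33.2, those labelled shZc3h10 had Timm50 at 106 and Tomm40l at 49.2, and labelled scramble libraries began with Hspd1 at 52.8. Timm8a2 and Tomm20l, a copy of the receptor gene Tomm20, were close to absent, with at most 9 and 10 exonic reads in any library.

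The first comparison asked how the genes stand in RNA made within the labelling time against total RNA, over both hairpins, which does not depend on which hairpin a total library had. Of the 32 members tested (all but Timm8a2), 3 were called higher in labelled RNA, 13 lower and 16 were not called (edgeR adjusted p below 0.05). Of the 3, Tomm20l passed the filter on low counts only through the labelled libraries, where it is higher, so its call is not read as a result, which leaves Timm9 and Timm17a. Over the 15046 genes tested, 71% were called, 35.1% higher and 35.9% lower, so the members' 13 lower calls make a share near that of all genes. The median log2 ratio was -0.18 for the members and -0.01 for all genes. CPM in this comparison are scaled over all 11 libraries. Across 14355 genes, which are not independent replicates, the log2 ratio had a correlation of -0.25 with GC content and 0.17 with log exon length. The part of either in the members' ratios was not tested.

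**Figure D1:**
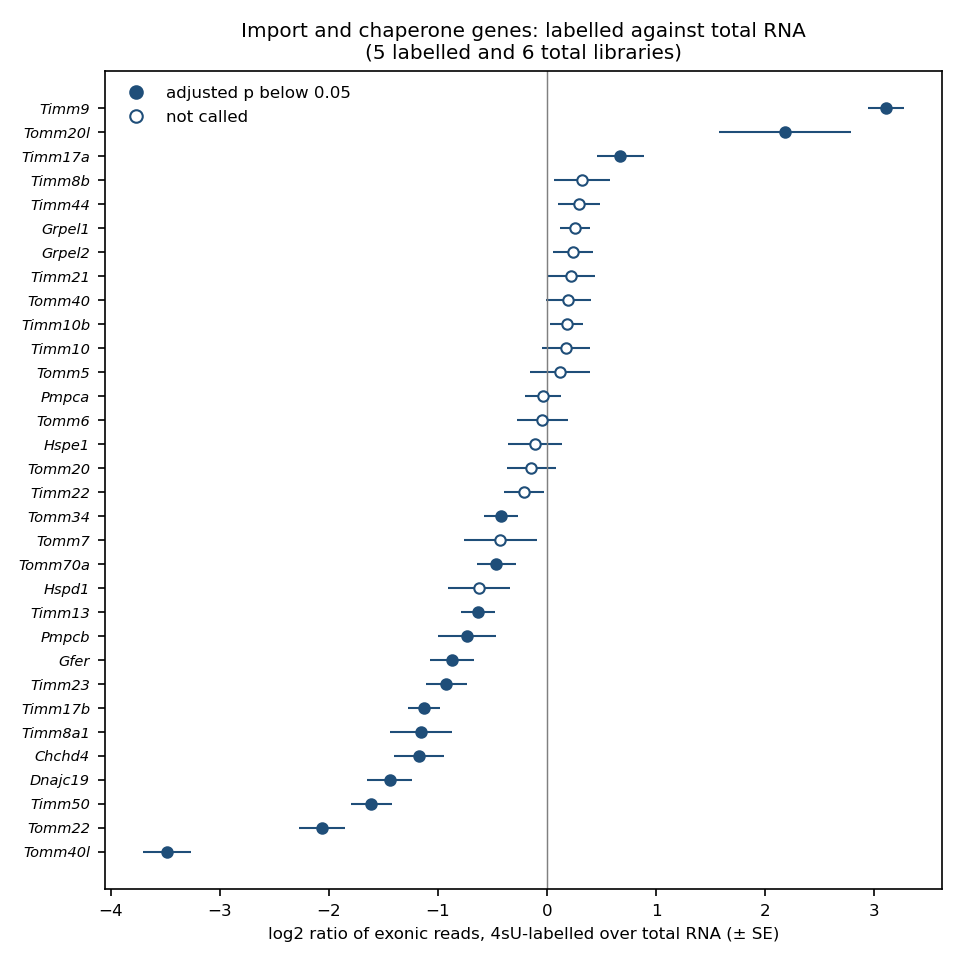
Log2 ratio of exonic reads in 4sU-labelled over total RNA (x axis) for the 32 members tested, with bars of 1 SE and filled points for an adjusted p below 0.05. Timm9 stands at 3.10 at the top and Tomm40l at -3.48 at the bottom, with 16 members not called between them.

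Timm9, a small chaperone of the intermembrane space, was the member highest in labelled relative to total RNA. It had 70.6 ± 3.77 CPM (SD, n = 5) in labelled and 8.27 ± 1.62 CPM (SD, n = 6) in total RNA, and the lowest labelled library (67.0) lay far above the highest total one (10.2). The log2 ratio was 3.10 ± 0.17 (SE, edgeR adjusted p = 2.56e-10). Its relatives stood elsewhere: Timm10, with which it forms a complex, was at 0.17 ± 0.22, Timm10b at 0.18 ± 0.15 and Timm8b at 0.32 ± 0.26, none of them called, while Timm13 at -0.63 (edgeR adjusted p = 0.00148) and Timm8a1 at -1.15 (edgeR adjusted p = 0.00142) were lower in labelled RNA. Timm9 overlaps Tomm20l in the RefSeq annotation and lies next to 2700049A03Rik, and the SMART-seq2 protocol named in the labels does not mark strand, so reads of overlapping genes cannot be told apart.

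Tomm40l, a paralogue of the Tomm40 channel, was at the other end. It had 21.9 ± 0.478 CPM in labelled RNA and 252 ± 90.1 CPM in total RNA, a log2 ratio of -3.48 ± 0.22 (SE, edgeR adjusted p = 7.79e-10). Tomm40 itself had 8.61 and 7.64 CPM, a log2 ratio of 0.19 ± 0.20 (edgeR adjusted p = 0.403). Tomm40l overlaps Nr1i3 and Apoa2 in the annotation.

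Of the TOM receptors, Tomm22 was lower in labelled RNA, with 4.60 ± 0.866 CPM against 19.5 ± 4.40 and a log2 ratio of -2.06 ± 0.21 (SE, edgeR adjusted p = 1.05e-07). Tomm70a was at -0.47 (edgeR adjusted p = 0.0249), and Tomm20 at -0.15 (edgeR adjusted p = 0.576) was not called. Tomm20l rests on at most 10 exonic reads in a labelled and 4 in a total library, and no fold is given. Tomm34, a cytosolic cofactor of import, was at -0.42 (edgeR adjusted p = 0.0244).

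The channel and receptor genes of the TIM23 complex split. Timm17a was higher in labelled RNA, with 23.4 ± 3.03 CPM against 14.9 ± 6.70 and overlapping ranges, at a log2 ratio of 0.67 ± 0.22 (SE, edgeR adjusted p = 0.0111), a call lost without labelled scramble library 1. Its paralogue Timm17b was lower, with 22.2 ± 2.44 CPM against 49.0 ± 4.53 and no overlap, at -1.13 ± 0.15 (SE, edgeR adjusted p = 2.3e-06). Timm50 at -1.61 and Timm23 at -0.92 were lower in labelled RNA as well, and Timm21, a TIM23 subunit that contacts the TOM complex, was at 0.22 and not called.

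In the import motor, Dnajc19, a J-protein of the inner membrane, had 40.6 ± 9.91 CPM in labelled and 118 ± 57.9 CPM in total RNA, a log2 ratio of -1.44 ± 0.21 (SE, edgeR adjusted p = 7.81e-06). The nucleotide exchange factors Grpel1 and Grpel2 were at 0.26 and 0.24 and Timm44, which anchors the motor, at 0.29, none of them called. Both genes of oxidative folding in the intermembrane space were lower in labelled RNA: Chchd4, the oxidoreductase also known as Mia40, at -1.18 ± 0.23 (SE, edgeR adjusted p = 0.000187) and Gfer, the oxidase that recycles it, at -0.87 ± 0.20 (SE, edgeR adjusted p = 0.000941). Of the peptidase subunits Pmpcb was at -0.73 (edgeR adjusted p = 0.019) and Pmpca at -0.04 (edgeR adjusted p = 0.851). Neither chaperonin gene was called, with Hspd1 at -0.62 (edgeR adjusted p = 0.0584) and Hspe1 at -0.11, and Timm22, the channel of the carrier pathway, was at -0.21.

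Leaving out any 1 of the 11 libraries ended the calls of Tomm70a and Tomm34 in 5 cases each, of Pmpcb in 4 and of Timm17a in 1. The other 12 called members stayed called in all 11 fits. Tomm20l is among these 12, and its call is not read as a result here either.

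The intronic share of a gene's reads gives another view of the same libraries. Over the 29 members with intronic reads in both kinds of RNA and at least 20 reads in every library, the median share was 65.6% in labelled RNA and 20.2% in total RNA. In 25 of them every labelled library had a higher share than every total library. The exceptions were Timm9, Timm13, Timm8b and Timm10. Whole libraries differed in the same way: over all genes, intronic reads made 67.9 to 71.7% of a labelled and 10.7 to 21.9% of a total library. How many of all genes separate in this way was not computed, so the count is not read as particular to the members.

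**Figure D2:**
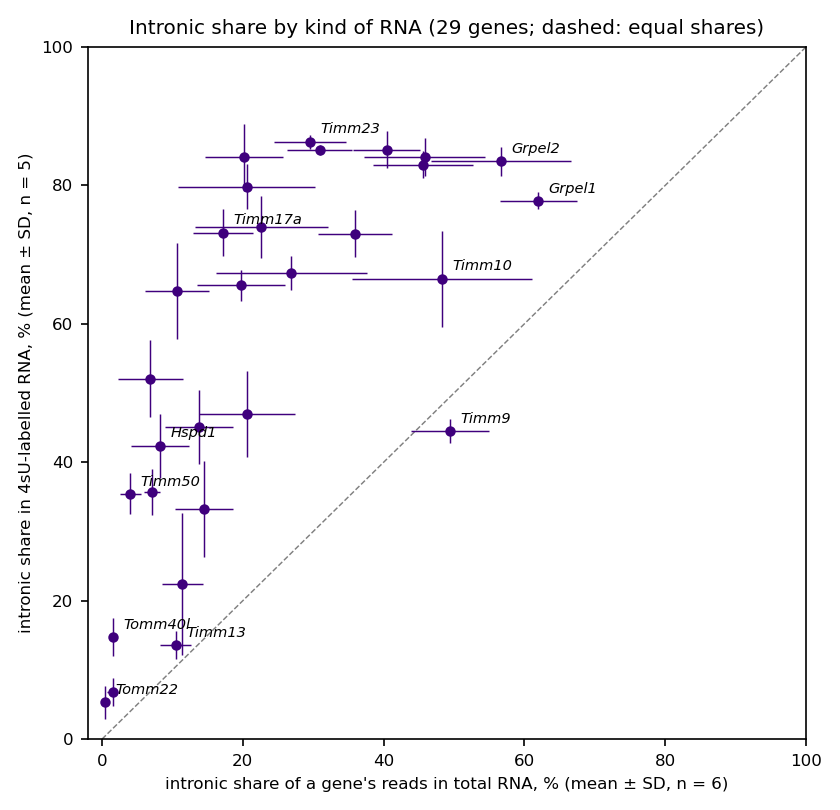
Intronic share of a gene's reads in total RNA (x axis, mean ± SD of 6 libraries) and in labelled RNA (y axis, mean ± SD of 5 libraries), in percent, for 29 members, with the line of equal shares dashed. Timm9, at 49.4% and 44.5%, is the 1 member below the line.

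Timm9 was the 1 member whose mean intronic share was lower in labelled RNA, at 44.5% (42.1 to 46.1%) against 49.4% (40.5 to 55.6%), with overlapping ranges. Tomm40l had 14.7% in labelled and 1.59% in total RNA. The motor genes Grpel1 and Grpel2 kept high shares in total RNA, at 61.9% and 56.7%, beside 77.8% and 83.5% in labelled RNA. Timm23 went from 86.3% in labelled to 29.5% in total RNA and Hspd1 from 42.4% to 8.24%. Timm17b and Timm21 had 0 intronic reads in all 11 libraries, and the intronic tables list both.

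The second comparison asked what the Zc3h10 hairpin did to newly made RNA. Among exonic reads of labelled RNA, 0 of the 31 members tested were called by edgeR and 0 by DESeq2, and 3 had an unadjusted p below 0.05. Of the 13637 genes tested, 10.4% were called. The members' log2 fold changes ran from -0.44 for Hspd1 to 0.43 for Timm10, with 14 above and 17 below 0 and a median of -0.01, beside -0.00 for all genes. The genes with an unadjusted p below 0.05 were Hspd1 at -0.44 ± 0.17 (SE, edgeR adjusted p = 0.106), Timm50 at -0.44 ± 0.15 (SE, edgeR adjusted p = 0.0754) and Timm10b at 0.37 ± 0.16 (SE, edgeR adjusted p = 0.161).

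Hspd1, the chaperonin Hsp60, had 157 and 99.5 CPM in the labelled scramble libraries and 91.7, 93.9 and 98.6 in the labelled shZc3h10 libraries. Scramble library 1 stood apart and the other 4 lay close together: without scramble library 1 the log2 fold change was -0.07, and without scramble library 2 it was -0.71 and called. Hspe1, its partner and neighbour, had 12.2 and 10.3 CPM against 12.6, 10.8 and 11, with the groups overlapping, and a log2 fold change of 0.02 ± 0.20 (SE, edgeR adjusted p = 0.97). Timm50 had 76.9 and 61.1 CPM with scramble and 47.5, 50.7 and 55.0 with shZc3h10, which did not overlap. Wholly lower with shZc3h10 were 4 of the 31 members and 18.9% of all genes, and wholly higher 3 members and 18.2%.

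Among intronic reads of labelled RNA, 0 of the 29 members tested were called by edgeR and 0 by DESeq2, 3 had an unadjusted p below 0.05, and 15.5% of the 13553 genes tested were called. The log2 fold change was below 0 in 22 of the 29, with a median of -0.19 beside 0.01 for all genes, and the lowest was Tomm40l at -0.55 ± 0.34 (SE). The 3 with an unadjusted p below 0.05 were Timm17a at 0.35 (edgeR adjusted p = 0.0765), Tomm40 at -0.45 (edgeR adjusted p = 0.11) and Pmpcb at 0.24 (edgeR adjusted p = 0.107). Leaving out shZc3h10 library 2 made Timm17a pass in the higher direction and Tomm34 in the lower.

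The third comparison was that of the hairpins in total RNA, by label. Among exonic reads, 2 of the 31 members tested, Timm50 and Dnajc19, were called higher in libraries labelled shZc3h10 by edgeR and 3 by DESeq2 (Timm13 joined), and 0 were lower by either, with 9 at an unadjusted p below 0.05 in either direction. Over the 13846 genes tested, 6.42% were called and 3.06% were called higher. The members' median log2 fold change was -0.25, beside -0.10 for all genes, and 21 of the 31 were below 0. The count of called members, 2 of 31, makes a share close to that of all genes.

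**Figure D3:**
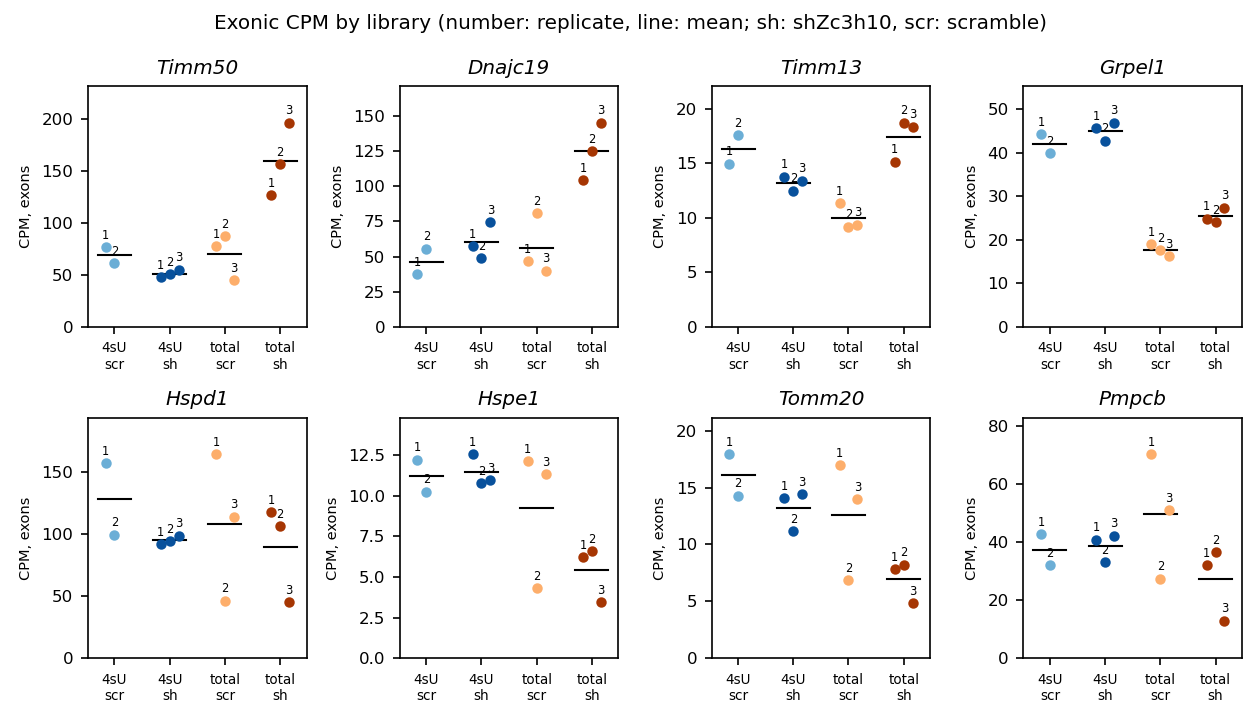
Exonic CPM of 8 members in each library (points, numbered by replicate) with the group mean (line), scaled within the labelled and within the total libraries, so the level of one kind is not set against the other. In total RNA, Timm50, Dnajc19, Timm13 and Grpel1 lie higher in the 3 libraries labelled shZc3h10, while Hspd1, Hspe1, Tomm20 and Pmpcb are lowest in scramble 2 and shZc3h10 3.

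Timm50, the receptor that hands presequences to the TIM23 channel, had 77.4, 86.9 and 44.9 CPM in total libraries labelled scramble and 127, 157 and 196 in those labelled shZc3h10. The groups did not overlap, and the log2 fold change was 1.20 ± 0.31 (SE, edgeR adjusted p = 0.0359). Wholly higher in libraries labelled shZc3h10 were 4 of the 31 members and 13.9% of all genes, and wholly lower 2 members and 15.4%. Dnajc19 had 46.7, 80.9 and 40.0 CPM in total libraries labelled scramble and 104, 125 and 145 in those labelled shZc3h10, again without overlap, for 1.16 ± 0.31 (SE, edgeR adjusted p = 0.0393). Both calls were lost without the library labelled shZc3h10 1, shZc3h10 2, scramble 1 or scramble 3, with the log2 fold change staying between 0.98 and 1.45 for Timm50 and between 0.98 and 1.59 for Dnajc19. The annotation has Dnajc19 overlapping Fxr1 and Timm50 overlapping Gm51445.

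Timm13, a small chaperone that works with Timm8a1, had 11.4, 9.20 and 9.37 CPM in total libraries labelled scramble and 15.2, 18.7 and 18.4 in those labelled shZc3h10, a log2 fold change of 0.80 ± 0.26 (SE) that edgeR did not call (adjusted p = 0.0682) and DESeq2 did. Grpel1 had 19.1, 17.6 and 16.2 CPM against 24.9, 24.1 and 27.4, also without overlap, for 0.53 ± 0.24 (SE, edgeR adjusted p = 0.178). The lowest values were those of Tomm7, a small TOM subunit, at -0.88 ± 0.43 (SE), Pmpcb at -0.87 ± 0.39 (SE), Tomm20 at -0.86 ± 0.34 (SE), Timm8b at -0.83 ± 0.40 (SE), Timm17a at -0.81 ± 0.35 (SE) and Hspe1 at -0.77 ± 0.38 (SE). None of these 6 was called with all 6 libraries. Without the library labelled scramble 2, Tomm7, Pmpcb, Tomm20, Timm17a and Hspe1 were called lower. In these 5 genes scramble 2 and shZc3h10 3 are the lowest total libraries, so leaving out scramble 2 by itself moves them towards a lower call. That fit called 2588 of all genes in either direction, against 889 with all 6 libraries.

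**Figure D4:**
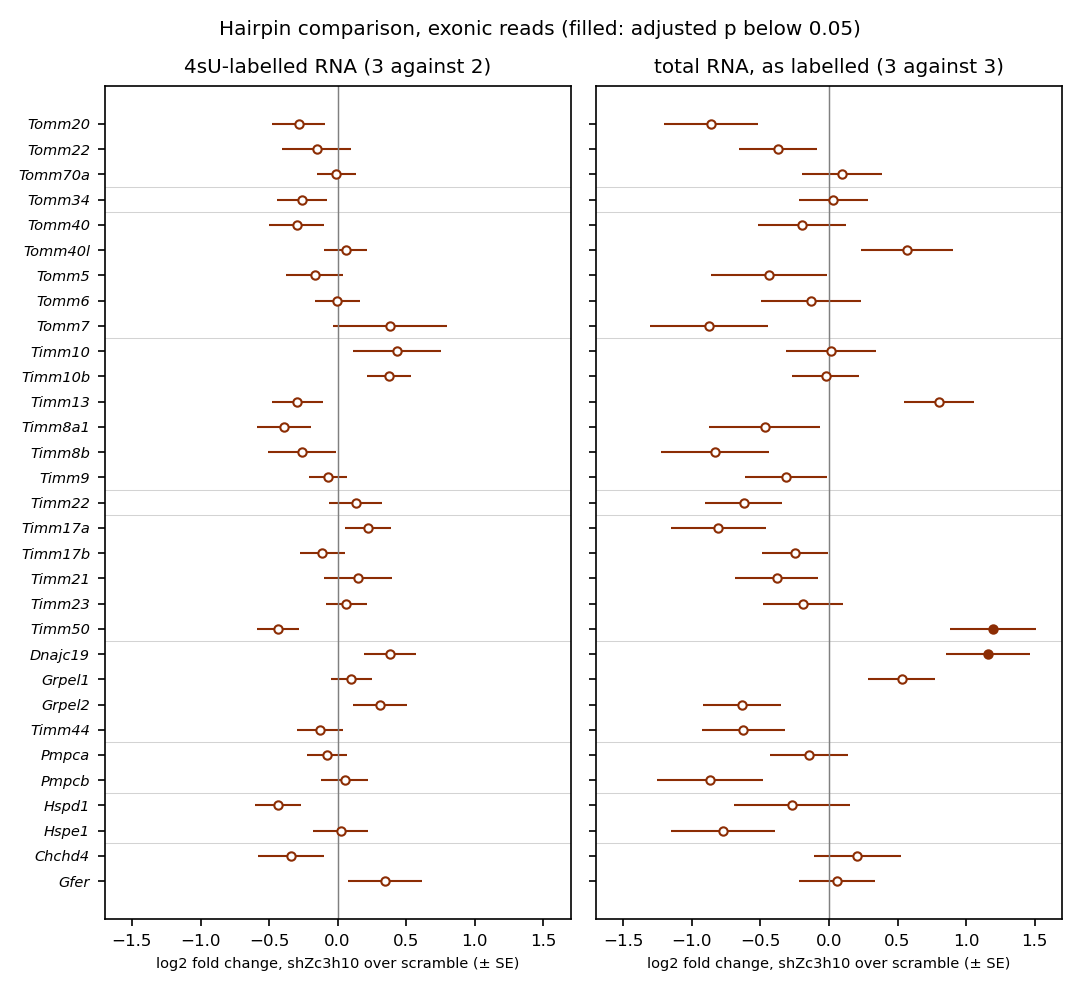
Log2 fold change of exonic reads, shZc3h10 over scramble (x axis, bars of 1 SE), for the 31 members tested, in labelled RNA (left) and in total RNA by label (right), with grey lines between roles and filled points for an adjusted p below 0.05. Left, the members lie between -0.44 and 0.43 and none is filled. Right, Timm50 and Dnajc19 are filled.

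Among intronic reads of total RNA, 3 of the 29 members tested were called higher in libraries labelled shZc3h10 by edgeR and 4 by DESeq2 (Timm50 joined), and 0 were lower by either, with 7 at an unadjusted p below 0.05 in either direction. Of the 13877 genes tested, 5.18% were called and 3.08% were called higher. The members' median was 0.09, beside -0.02 for all genes. Timm13 had 5.47, 6.76 and 4.44 intronic CPM in total libraries labelled scramble and 11, 20.4 and 13.3 in those labelled shZc3h10, a log2 fold change of 1.43 ± 0.37 (SE, edgeR adjusted p = 0.0384). Timm10 had 4.66, 7.68 and 5.08 against 12.9, 16.6 and 14.5, for 1.34 ± 0.35 (SE, edgeR adjusted p = 0.0399), whereas its exonic log2 fold change was 0.01. Grpel1 had 173, 156 and 102 against 235, 284 and 403, for 1.10 ± 0.23 (SE, edgeR adjusted p = 0.0152).

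In none of these 3 genes did the intronic groups overlap. Wholly higher in libraries labelled shZc3h10 were 7 of the 29 members, these 3 included, and 13.7% of all genes. Wholly lower were 1 member and 9.45% of all genes. The calls of Timm13 and Timm10 were lost in 5 of 6 fits that left out 1 library (all but scramble 2), and that of Grpel1 without shZc3h10 2 or shZc3h10 3. Timm50 introns were at 0.90 ± 0.25 (SE, edgeR adjusted p = 0.0574, DESeq2 adjusted p = 0.0136), and Dnajc19 introns at 0.36 ± 0.16 (SE, edgeR adjusted p = 0.255). Timm13 overlaps Tmprss9 and Grpel1 overlaps Tada2b in the annotation.

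The difference between the hairpin effect in labelled RNA and that in total RNA was tested as an interaction over all 11 libraries. This test had the largest SE by median over the members here, so that members not called may still differ. Labelled and total libraries may come from the same cultures, but this fit and that of labelled against total RNA took all 11 as independent. Of the 32 members tested, 2 were called lower and 0 higher, by edgeR and by DESeq2 alike, with 5 at an unadjusted p below 0.05, beside 14.1% of all genes called and 8.56% called lower. Timm50 differed by -1.78 ± 0.36 (SE, edgeR adjusted p = 0.00281), a call kept in all 11 fits that left out 1 library, and Timm13 by -1.25 ± 0.31 (SE, edgeR adjusted p = 0.0104), lost without labelled scramble library 1 or 2. Both were lower with shZc3h10 in labelled RNA, at -0.44 and -0.29 and not called there, and higher in total libraries labelled shZc3h10. Dnajc19, with 0.38 in labelled RNA and 1.16 in total RNA by label, differed by -0.92 ± 0.40 (SE, edgeR adjusted p = 0.14). Zc3h10 itself differed by -1.68 (edgeR adjusted p = 0.00677). If the file names and not the labels give the hairpins of total RNA, both kinds of RNA move the same way in Timm50 and Timm13. Whether the effects differ at all in these genes therefore rests on the labels. Dnajc19 would then move in opposite directions in labelled and total RNA, so the members that differ depend on the labels too. A count of 2 in 32 lies near the share of all genes called lower.

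The members varied among the total libraries in a shared order, a pattern picked after the values were seen. Scramble 2 and shZc3h10 3 were the lowest of the 6 total libraries in 17 of the 31 members (54.8%), against 12.5% of all 13846 genes. Scramble 1 was the highest in 20 members (64.5%), against 19.3% of all genes. The median log2 deviation of the members from their mean was -0.33 in shZc3h10 3, -0.26 in scramble 2, 0.43 in scramble 1 and 0.24 in scramble 3. The same libraries' medians over all genes lay between -0.03 and 0.05.

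**Figure D5:**
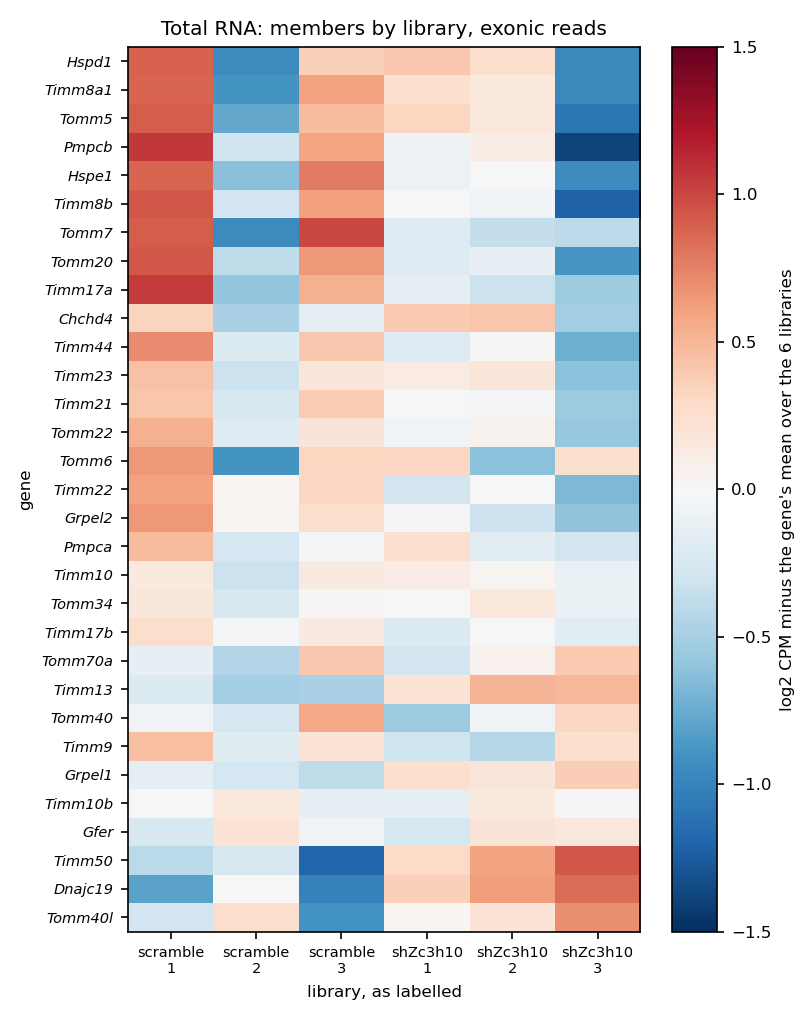
Exonic log2 CPM of 31 members in each total library (columns, as labelled) minus the gene's mean over the 6 libraries (color, clipped at 1.5 either way), sorted by their sum in scramble 2 and shZc3h10 3. Most members are blue in scramble 2 and shZc3h10 3 and red in scramble 1, while Timm50, Dnajc19 and Tomm40l are the reddest in shZc3h10 3.

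Hspd1 shows the pattern most plainly. It had 164, 46.2 and 114 CPM in total libraries labelled scramble and 117, 106 and 45.3 in those labelled shZc3h10, so that the lowest library of each group lay together, and its log2 fold change was -0.27 ± 0.42 (SE, edgeR adjusted p = 0.716). Pmpcb ran from 12.9 CPM in shZc3h10 3 to 70.3 in scramble 1. Intronic reads of the members were low in scramble 2 as well (median deviation -0.23, 24 of 29 below their mean) and less so in shZc3h10 3 (-0.09, 17 of 29), while scramble 1 was not high (-0.01). Hspd1 introns had 40.9, 30.6 and 52.9 CPM in libraries labelled scramble and 42.9, 45.0 and 44.8 in those labelled shZc3h10. Only Dnajc19, Grpel1, Timm50 and Tomm40l were highest in shZc3h10 3 (12.9% of members, against 25.2% of all genes). The within-group SD of exonic log2 CPM in total RNA had a median of 0.410 over the members and 0.318 over all genes, and in labelled RNA 0.175 and 0.188. Across 13377 genes, which are not independent replicates, the exonic deviation had a correlation with log exon length of 0.20 in scramble 2 and 0.16 in shZc3h10 3, against -0.19 in scramble 1, 0.06 in scramble 3, -0.04 in shZc3h10 1 and -0.29 in shZc3h10 2. With GC content it lay between -0.15 and 0.15 in all 6. The part of gene length in the members' order was not tested.

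Other genes of import and protein quality control, 27 of which were tested, gave 0 calls in exonic labelled RNA (2 at an unadjusted p below 0.05, 0 by DESeq2) and 0 in exonic total RNA (4 at an unadjusted p below 0.05). DESeq2 called 4 of them higher in total libraries labelled shZc3h10, Clpp, Ghitm, Pitrm1 and Romo1, where it called 1890 genes in either direction. In labelled introns Mtx1, of the machinery that assembles outer membrane proteins, fell by 0.55 (edgeR adjusted p = 0.00526) and Timmdc1, an assembly factor of complex I, fell by 0.36 (edgeR adjusted p = 0.0445) on the log2 scale. These were 2 of 27 called lower, beside 890 of all 13553 genes tested, and 15.5% of all genes were called in either direction. In total introns edgeR called 2 of the 27 higher in libraries labelled shZc3h10, Romo1 at 1.72 (edgeR adjusted p = 0.000375) and Ghitm at 0.98 (edgeR adjusted p = 0.015), beside 3.08% of all genes called higher. The interaction called Ghitm at -1.41 (edgeR adjusted p = 0.0357) and Pitrm1 at -1.44 (edgeR adjusted p = 0.0267), 2 of 27 beside 8.56% of all genes called lower. In labelled against total RNA, 5 of the 27 were higher and 14 lower, with a median of -0.41. Of all genes, 35.1% were called higher and 35.9% lower there, with a median of -0.01.

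Hspd1 and Hspe1 are also known targets of heat shock factor, so 15 cytosolic targets were read beside them. In exonic labelled RNA 3 were lower with shZc3h10 (Hspb1 at -1.26, Hsph1 at -0.87 and Hsp90aa1 at -0.65, edgeR adjusted p of 7.01e-05, 0.000785 and 0.0021) and 0 higher by edgeR or DESeq2, with 9 at an unadjusted p below 0.05 in either direction and a median of -0.29, beside 10.4% of all genes called. In total RNA 6.42% of all genes were called in either direction and 3.06% were called higher. There edgeR called 2 of the 15 higher in libraries labelled shZc3h10, Hsph1 at 1.48 and Bag3 at 1.17 (edgeR adjusted p of 0.0196 and 0.0314). DESeq2 called 5 higher and 1 lower. The lower one was Hspa1b, an inducible Hsp70 gene, which went the other way from most of the list, at -1.16 in total RNA by label (edgeR adjusted p = 0.0534) and 0.59 in labelled RNA (edgeR adjusted p = 0.0666), with an interaction of 1.58 (edgeR adjusted p = 0.0248). The interaction called 7 of the 15 lower and 1 higher, beside 14.1% of all genes called in either direction. Hspd1 and Hspe1 were called in none of these.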

How the data were processed

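The deposited values are whole-number read counts per gene, 1 exonic and 1 intronic table per library, which the authors made from reads aligned to mm9 with TopHat2 2.0.8 and TopHat, per the submitters' processing notes. The counting program and annotation were not given in the sources used here, nor was how the counting used strand. Libraries came from a SMART-seq2 protocol with random priming and Tn5 tagmentation, per the labels' protocols.

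Groups came from the labels. Counts were tested with edgeR 4.0.16 in R 4.3.3 (quasi-likelihood, TMM scaling, filterByExpr with a minimum count of 10 and total of 15, Benjamini-Hochberg over all genes tested, adjusted p below 0.05). SE is the log2 fold change over the root of F. Scripts were tested on simulated data, where the interaction missed most moderate changes and the pass condition for it was relaxed after this was seen. CPM use TMM scaling, within labelled or total libraries unless said otherwise. Exon lengths came from GENCODE M21 (GRCm38), another build than the counts, and are used for length only. Alternatives were upper-quartile and relative log expression scaling, DESeq2 1.42.0, no filter, a replicate block, all 11 libraries in 1 fit, and each library left out. The members, lists and motifs were chosen with earlier results of these data known. Genes named are the members, and those of the lists that were called. Timm8a2 passed the filter in no comparison.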

Additional observations from a re-analysis of the deposited data

Results flagged for a closer look

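In 2 members the hairpin effect differed between labelled and total RNA by the interaction test. Timm50 differed by -1.78 on the log2 scale (edgeR adjusted p = 0.00281), with exonic CPM lower in all 3 labelled shZc3h10 libraries than in both labelled scramble libraries and higher in all 3 total libraries labelled shZc3h10 than in the 3 labelled scramble. Timm13 differed by -1.25 (edgeR adjusted p = 0.0104), with the same arrangement of its libraries. Of all genes, 18.9% lay wholly lower with shZc3h10 in labelled RNA, and 13.9% wholly higher in total libraries labelled shZc3h10. The arrangement restates the values that the interaction tested and is no further support. Since the names of the total RNA files carry the other hairpin than the labels, whether the effects differ, by how much and with which sign holds for the labels only: with the hairpins of total RNA exchanged, both genes would move the same way in both kinds of RNA.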

How the results depend on the processing

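The counts of called members were recomputed under each alternative, and no named member reversed its direction among those with an unadjusted p below 0.05 in a comparison, the ones for which single values were recomputed. In exonic labelled RNA, 1 member (Hspd1) was called lower with no filter on low counts, and 0 to 1 when single libraries were left out. In exonic total RNA, the 2 members called higher became 4 with all 11 libraries in 1 fit (Grpel1 and Timm13 joined) and 0 to 2 with single libraries left out, and the 0 called lower became 0 to 5. In labelled introns, upper-quartile scaling called 1 member higher (Timm17a), and leaving out single libraries called 0 to 1 in each direction. In total introns, the 3 called higher became 1 with upper-quartile scaling (Grpel1), 0 to 3 with single libraries left out. In labelled against total RNA, the 3 called higher became 7 with upper-quartile scaling, which moved the median of all genes by 0.20, and 2 to 3 with single libraries left out, and the 13 called lower became 10 to 15. For the interaction, leaving out single libraries gave 0 to 1 higher and 1 to 4 lower.

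With the total libraries shZc3h10 3 and scramble 2 both left out, an alternative chosen after seeing the data, more members were called. Exonic total RNA gave 4 members higher (Dnajc19, Timm13, Timm50 and Tomm40l) and 5 lower (Hspe1, Pmpcb, Timm17a, Tomm20 and Tomm7), and the interaction 2 higher and 4 lower. Calls over all genes rose as well, from 889 to 3525 in exonic total RNA and from 2123 to 4044 in the interaction. The fit with the replicate block called 0 members higher in exonic and 0 in intronic total RNA. In exonic total RNA, the deviations of same-numbered libraries had correlations across genes of 0.252, -0.212 and -0.219. Deviations were taken from the mean of each group of 3, which makes such correlations offset each other. They cannot decide whether the numbers pair the samples, and the main tests used no pairing. Over all genes, exonic total RNA gave 889 calls, but 1890 with DESeq2, 1591 with no filter, 2711 with all 11 libraries, 100 with the block and 161 to 2588 with single libraries left out. The 4sU exonic comparison gave 1412 calls, but 296 with all 11 libraries, 809 with the block and 724 to 1734 with single libraries left out.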
